A study of Mus musculus with 6 samples.

Results

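The promoters of 10 genes that T cells need to develop were followed in thymic epithelium: Themis, Lat, Cd3d, Cd3e, Cd3g, Cd4, Cd8a, Cd8b1, Rag1 and Rag2. They were chosen by symbol, as a check for thymocytes carried along with the epithelial cells, and make up 10 of the 27095 gene windows of the study. Accessibility was read with ATAC-seq, an assay in which the transposase Tn5 inserts adapters where DNA is exposed. The cells were medullary thymic epithelial cells (mTECs) with high MHC class II. The 6 libraries were 3 from Kat7-knockout and 3 from wildtype mice, all on the C57BL/6 background and each a biological replicate per the design text. KAT7 is a histone acetyltransferase. The sources used here do not state the Cre driver or other means of deletion, the deleted part of Kat7, the age and sex of the mice, or whether animals were pooled.

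In the thymus, developing T cells (thymocytes) are tested against self-peptides that epithelial cells show them, so the populations lie in close contact. A thymocyte first rearranges its T cell receptor genes with the RAG1 and RAG2 recombinase. It then assembles the receptor with the CD3 signalling chains, and carries the coreceptors CD4 and CD8 until selection leaves it with only CD4 or only CD8. Signals from the receptor pass through the membrane adaptor LAT and are tuned during positive selection by THEMIS. Promoters of these genes are used in T lineage cells at defined stages.

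The promoter sequences show what kind of windows these are. RefSeq sequences (build GRCm38.p6) of 300 bases, from 250 before to 50 after the gene start, matched 8 of the 10 genes. Their CpG content, observed over expected from base composition, was below the median of 17999 promoters (0.58) for 8 of 8, and below 0.25 for 6. It was 0.112 at Themis, 0.198 at Cd8a, 0.31 at Lat and 0.333 at Cd3e, and the GC share was 49.3%, 46.7%, 65.7% and 56.7% in the same order. These 4 promoters are shown because Themis and Cd8a were higher in knockout libraries, Lat was lower, and Cd3e differed least. The sequences run 5′ to 3′ on the gene's strand. Capitals mark matches on either strand to motifs of T lineage factors. AGGAAG was searched for ETS factors, and TGTGGT or, as a second form, TGCGGT for RUNX factors. CAGNTG was searched for E-box factors, CTTTGA for TCF and LEF factors, AGATAA for GATA factors, and TATAAA as the box of the basal machinery. A capital run can hold overlapping matches. Themis lies at chr10:28668145-28668444 on the plus strand, Cd8a at chr6:71373177-71373476 on the plus strand, Lat at chr7:126369519-126369818 on the minus strand and Cd3e at chr9:45009562-45009861 on the minus strand.
Themis: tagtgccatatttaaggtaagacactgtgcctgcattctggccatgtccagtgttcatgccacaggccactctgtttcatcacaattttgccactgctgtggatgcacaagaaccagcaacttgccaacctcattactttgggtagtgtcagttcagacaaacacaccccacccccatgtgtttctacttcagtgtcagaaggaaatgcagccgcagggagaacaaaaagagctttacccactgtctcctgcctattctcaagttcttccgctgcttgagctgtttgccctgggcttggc
Cd8a: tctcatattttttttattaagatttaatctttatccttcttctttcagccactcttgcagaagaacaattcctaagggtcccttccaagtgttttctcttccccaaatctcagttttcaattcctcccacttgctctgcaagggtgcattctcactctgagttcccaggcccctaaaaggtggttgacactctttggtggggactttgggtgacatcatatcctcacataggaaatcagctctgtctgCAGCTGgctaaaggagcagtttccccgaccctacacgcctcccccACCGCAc
Lat: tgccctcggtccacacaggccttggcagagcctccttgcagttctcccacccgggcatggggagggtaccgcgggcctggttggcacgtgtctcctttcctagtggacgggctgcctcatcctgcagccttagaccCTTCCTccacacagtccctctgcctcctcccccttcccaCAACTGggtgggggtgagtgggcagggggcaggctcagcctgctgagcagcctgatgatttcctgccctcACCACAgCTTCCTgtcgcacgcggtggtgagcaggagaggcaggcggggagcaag
Cd3e: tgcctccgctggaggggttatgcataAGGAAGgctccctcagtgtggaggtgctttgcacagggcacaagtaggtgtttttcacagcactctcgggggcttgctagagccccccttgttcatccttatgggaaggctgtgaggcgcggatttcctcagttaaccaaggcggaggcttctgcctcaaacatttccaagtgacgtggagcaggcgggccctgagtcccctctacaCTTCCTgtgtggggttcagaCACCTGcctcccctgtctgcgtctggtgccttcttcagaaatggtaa
The Themis promoter holds none of these letters in this stretch. That of Lat holds 2 ETS matches, at 114 bases before the gene start and at base 3 after it, with 1 RUNX match 5 bases before it and 1 E-box match. That of Cd3e holds 2 ETS matches and 1 E-box match, and that of Cd8a 1 E-box match and 1 RUNX match of the second form. An E-box match was found in 7 of the 8 promoters and in 48.3% of all promoters, and an ETS match in 4 of 8 and in 34.1%. TGTGGT stood in 2 of 8 (Lat and Rag1) against 15.0% of all, TGCGGT in 1 of 8 against 7.5%, CTTTGA in 1 of 8 (Cd3d) against 14.9%, AGATAA in 1 of 8 (Cd3g) against 9.67% and TATAAA in 0 of 8 against 13.1%. A match is a run of letters and does not show that a factor binds there.

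The study's values were whole-number counts in 1 window per gene of build mm10. For 5 of the 8 genes with a promoter entry the window began exactly 3000 bases before and ended 2000 bases past RefSeq's gene start, and for the others it was off by at most 36 bases. They report promoter accessibility, not expression. Library totals lay between 15482439 and 19740835 counts in knockout and between 15494911 and 19832326 in wildtype libraries. Levels are given as CPM, counts scaled to library size and composition. A count of 3, the limit that a count of 0 allows, equals 0.172 to 0.183 CPM in knockout and 0.154 to 0.192 CPM in wildtype libraries, for counting error only. The Kat7 window itself had 11.9, 13.2 and 38.3 CPM in knockout libraries 1 to 3, against 290.7, 238.3 and 272.1 CPM in wildtype libraries 1 to 3. Of the 16 mTEC markers, the promoters of H2-Ab1 (86.1 CPM per kb in knockout and 96.1 in wildtype) and Cd74 (73.5 and 76.4), which serve MHC class II presentation, were the most open per length. The single window of Ciita, the class II transactivator, was the least open (0.818 and 1.13 CPM per kb). Any promoter of the gene outside that window was not counted.

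The windows of the thymocyte lineage genes held few cuts in both genotypes. Per length, the median of the 10 was 0.749 CPM per kb in knockout and 0.592 CPM per kb in wildtype libraries. Cd3d and Cd3g, whose windows overlap, entered this median only with bases past the gene start, outside the promoter. The mTEC markers had medians of 30.6 and 29.0 CPM per kb. Olfactory receptor windows, which stand here for closed promoters, had medians of 0.303 CPM per kb in knockout and 0.203 CPM per kb in wildtype (1109 windows). The median of the 10 genes lay at percentile 30.8 of all windows that share no base with another, and that of the olfactory receptors at percentile 9.7. None of the 10 was at 0 in any library. Of the 1109 olfactory receptor windows only 1 was, so a count above 0 does not mark a window as open.

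**Figure D1:**
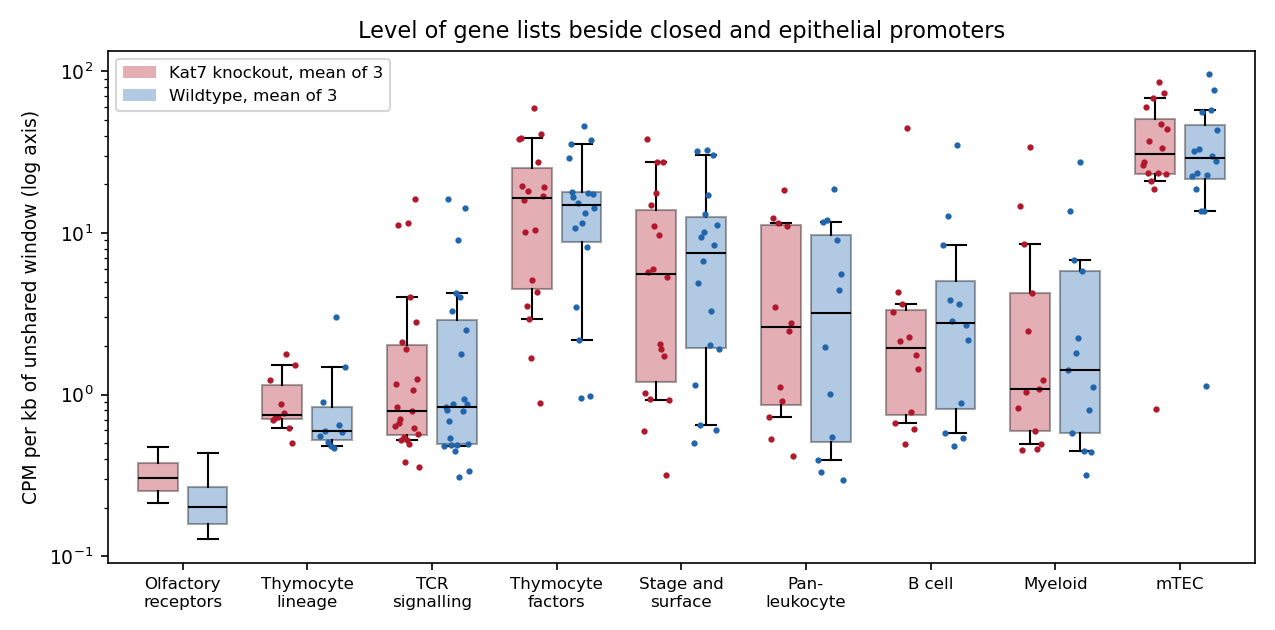
Mean CPM per kb of unshared window (vertical, log axis) in Kat7-knockout (red, left of each pair) and wildtype libraries (blue, right), 1 point per gene, for 8 gene lists and as boxes alone for olfactory receptors. Boxes show quartiles and median, whiskers the 10th and 90th percentiles. The thymocyte lineage medians (0.749 and 0.592) sit between those of olfactory receptors (0.303 and 0.203) and mTEC markers (30.6 and 29.0). Cd3d and Cd3g are plotted only from bases past the gene start.

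The order of the levels differed between the genotypes. In knockout libraries the order per kb was Lat (1.78 CPM per kb), Cd3e (1.51), Themis (1.23), Cd8a (0.876), Cd4 (0.770), Cd8b1 (0.728), Rag1 (0.717), Rag2 (0.699), Cd3g (0.619) and Cd3d (0.502). Only Themis was separated from its lower neighbour in that order, Cd8a, with no overlap of the 3 libraries. In wildtype libraries the order was Lat (3.02 CPM per kb), Cd3e (1.49), Rag2 (0.906), Cd3g (0.645), Rag1 (0.594), Cd3d (0.590), Themis (0.556), Cd8b1 (0.510), Cd8a (0.482) and Cd4 (0.467). There Lat and Cd3e were separated from the gene after them, and every other step overlapped. The values of Cd3d and Cd3g come from 355 bases at the downstream end of each window. These bases hold neither gene start, so the ranks of these genes are not those of promoter levels. The levels were set side by side as a description, without a test.

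**Figure D2:**
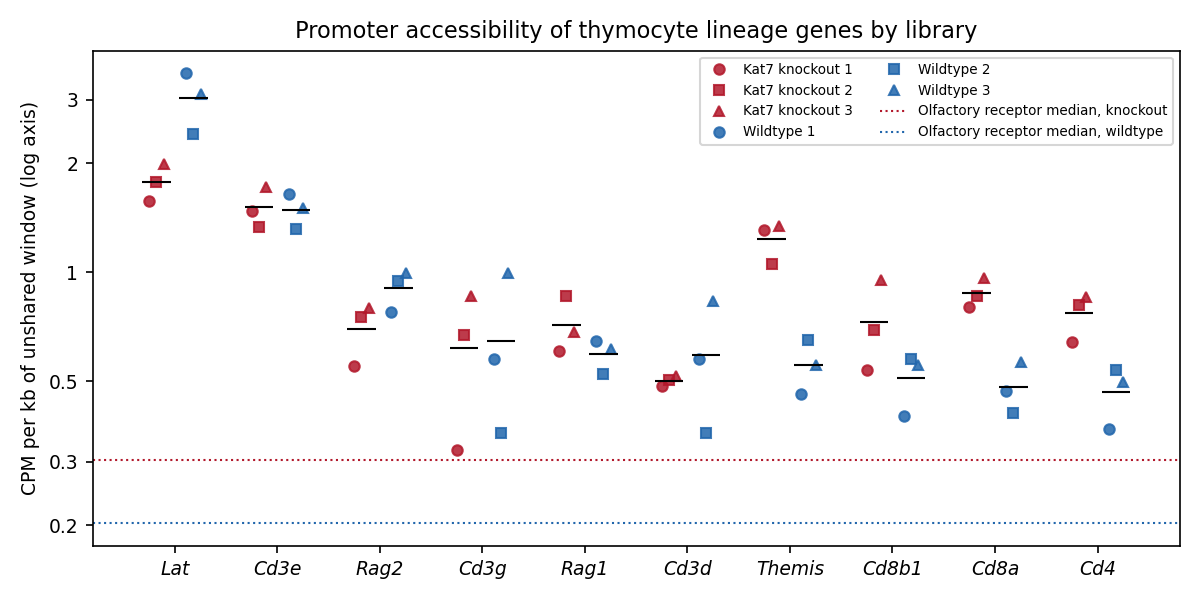
CPM per kb of unshared window (vertical, log axis) of the 10 thymocyte lineage genes in each Kat7-knockout (red, left) and wildtype library (blue, right), with the mean of 3 as a black line and the olfactory receptor medians as dotted lines. Themis, Cd8a and Cd4 have every knockout library above every wildtype library, and Lat every knockout library below. Points of Cd3d and Cd3g come only from bases past the gene start, outside the promoter.

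Of the 10 windows, 8 passed the filter on low counts, each with at least 32 counts in every library. Against wildtype, 3 of these were higher in knockout (Themis, Cd8a, Cd4), 1 was lower (Lat) and 4 did not pass (Cd3e, Cd8b1, Rag1, Rag2) at an adjusted p of 0.05. Over all 24817 windows tested 6.36% were higher and 20.2% were lower. Every knockout library lay above every wildtype library at the same 3 genes and below at the same 1, against 13.5% above and 24.6% below over all windows tested. The median log2 fold change of the 8 was 0.39, and that of all windows tested was 0.04. It was 0.54 for the 1055 tested olfactory receptor windows, above that of the 8. For the second quartile of all windows by level, which holds 7 of the 8, it was -0.27. The count of higher genes was 1 without wildtype library 2 and 5 after loess normalisation, which removes a trend of the change with the level. Over all windows tested, 1872 of 25228 and 4320 of 24817 were higher in these settings, against 1578 of 24817 in the main fit. In a bulk assay, more cells with an open promoter and more cuts per cell cannot be told apart.

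Themis, whose product adjusts receptor signalling in positive selection, had the largest gain of the 10. Its window (chromosome 10, 28665395 to 28670395, mm10) had 6.53, 5.26 and 6.73 CPM in knockout libraries 1 to 3, against 2.31, 3.26 and 2.78 CPM in wildtype libraries 1 to 3. The lowest knockout library lay well above the highest wildtype library. Knockout libraries averaged 6.17 ± 0.799 CPM and wildtype libraries 2.78 ± 0.477 CPM (SD, n = 3 each). The log2 fold change was 1.16 (SE 0.228, edgeR adjusted p = 3.36e-06). The gain passed in 15 of 15 alternatives, with log2 fold changes of 0.99 to 1.48. Its nearest named neighbours also rose. Gm20262, a predicted gene 199.5 kb to the right, had 4.03 ± 0.314 CPM in knockout and 1.59 ± 0.443 CPM in wildtype (log2 fold change 1.35, edgeR adjusted p = 7.57e-05). Ptprk, a receptor tyrosine phosphatase gene 588.6 kb to the left, had 172 ± 22.5 CPM in knockout and 124 ± 5.33 CPM in wildtype (0.47, adjusted p = 0.000955).

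The coreceptor genes of the CD8 heterodimer and of CD4 had positive fold changes, of which 2 of 3 passed. Cd8a, the chain that CD8 cannot do without, had 4.01, 4.30 and 4.83 CPM in knockout libraries 1 to 3, against 2.36, 2.05 and 2.83 CPM in wildtype libraries 1 to 3. The groups did not overlap, and the log2 fold change was 0.86 (SE 0.267, edgeR adjusted p = 0.00664); without wildtype library 2 it did not pass (adjusted p = 0.1). Cd8b1, which encodes the other chain, had 2.69, 3.46 and 4.77 CPM in knockout, against 2.00, 2.88 and 2.78 CPM in wildtype libraries. Knockout library 1 lay among the wildtype libraries, and the log2 fold change of 0.52 (SE 0.282) did not pass (edgeR adjusted p = 0.173). Without knockout library 1 it was 0.70 and passed (adjusted p = 0.0253). Cd4, the coreceptor for MHC class II, had 3.21, 4.06 and 4.28 CPM in knockout, against 1.84, 2.68 and 2.48 CPM in wildtype libraries.

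The Cd4 groups did not overlap, but the margin was small, and the log2 fold change of 0.73 (SE 0.283) passed narrowly (edgeR adjusted p = 0.0399). It did not pass in 7 of 15 alternatives. These included leaving out knockout library 2 (0.157) or 3 (0.132) or wildtype library 1 (0.233), 2 (0.0979) or 3 (0.141), all as adjusted p, while its log2 fold change stayed between 0.57 and 0.88. The windows beside these loci did not pass. Gpr162, an orphan receptor gene 19.3 kb from Cd4, had a log2 fold change of -0.11, and Lag3, an inhibitory receptor gene 18.5 kb away in a window sharing bases with another, had -0.23 (adjusted p = 0.119). Beside the Cd8 genes, Gm1070 had -0.20 and Rmnd5a, a ubiquitin ligase subunit gene, 0.07.

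Lat, the adaptor that links the activated receptor to downstream enzymes, was the most open of the 10 windows and the only one called lower. It had 7.85, 8.90 and 9.97 CPM in knockout libraries 1 to 3, against 17.7, 12.1 and 15.5 CPM in wildtype libraries 1 to 3. All 3 knockout libraries lay below the lowest wildtype library. Knockout libraries averaged 8.91 ± 1.06 CPM and wildtype libraries 15.1 ± 2.85 CPM (SD, n = 3 each). The log2 fold change was -0.77 (SE 0.141, edgeR adjusted p = 4.44e-07). It passed in 14 of 15 alternatives. After loess normalisation it was -0.31 (adjusted p = 0.0954). Spns1, a lysosomal transporter gene 3.4 kb from the Lat window, had -0.18 (adjusted p = 0.246), and the kinase gene Sbk1, 92.9 kb away, had 0.15 (adjusted p = 0.374).

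The recombinase genes did not pass and had fold changes of opposite sign. Rag1, which holds the catalytic site, had 3.04, 4.30 and 3.42 CPM in knockout, against 3.23, 2.62 and 3.07 CPM in wildtype libraries. The groups overlapped, with a log2 fold change of 0.27 (SE 0.269, edgeR adjusted p = 0.507). Rag2, its cofactor, had 2.75, 3.76 and 3.98 CPM in knockout, against 3.90, 4.73 and 4.96 CPM in wildtype libraries. Only the highest knockout library reached above the lowest wildtype library (log2 fold change -0.37, SE 0.238, edgeR adjusted p = 0.262). The window of Iftap, a gene named for intraflagellar transport that lies between them and 0.2 kb from that of Rag2, had 72.9 ± 2.48 CPM in knockout and 73.4 ± 0.789 CPM in wildtype. Its log2 fold change was -0.01 and turned positive in 4 of 15 alternatives. Traf6, a ubiquitin ligase gene of immune signalling on the other side of Rag1, had 0.25 (adjusted p = 0.122), and Lrrc4c, a synaptic adhesion gene, -0.14.

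Of Cd3d, Cd3e and Cd3g, only Cd3e could be tested. It had 7.39, 6.69 and 8.62 CPM in knockout, against 8.25, 6.58 and 7.50 CPM in wildtype libraries, and the groups overlapped (log2 fold change 0.02, SE 0.168, edgeR adjusted p = 0.952). The sign turned in 5 of 15 alternatives, and after loess normalisation the value was 0.46 (adjusted p = 0.0214). Cd3d and Cd3g start back to back on chromosome 9, and their windows share 4646 bases. Only 355 bases of each were their own, and they held 3, 3 and 3 counts (Cd3d) and 2, 4 and 5 counts (Cd3g) in knockout libraries, against 4, 2 and 5 (Cd3d) and 4, 2 and 6 (Cd3g) in wildtype libraries. Those bases lie at the downstream end of each window, past the gene start, so the promoters of Cd3d and Cd3g were not measured. At this depth a difference in the bases counted was not detectable either. The flanking windows of Ube4a, a ubiquitin ligase gene (0.16, adjusted p = 0.337), and Mpzl2, an adhesion gene of thymic epithelium (0.23, adjusted p = 0.126), did not pass. Over all 6 loci, 2 of 13 neighbouring windows rose, both beside Themis, and 0 fell by edgeR, DESeq2 or limma-voom (1 at an unadjusted p under 0.05). Over all windows tested 6.36% were higher and 20.2% lower. Most neighbours lay in the highest quartile of all windows by level, where 9.32% were higher and 3.72% lower. Of the neighbours that did not pass, Lag3 and Mpzl2 passed in 8 of 15 alternatives and Traf6 and Spns1 in 6, in the direction given.

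**Figure D3:**
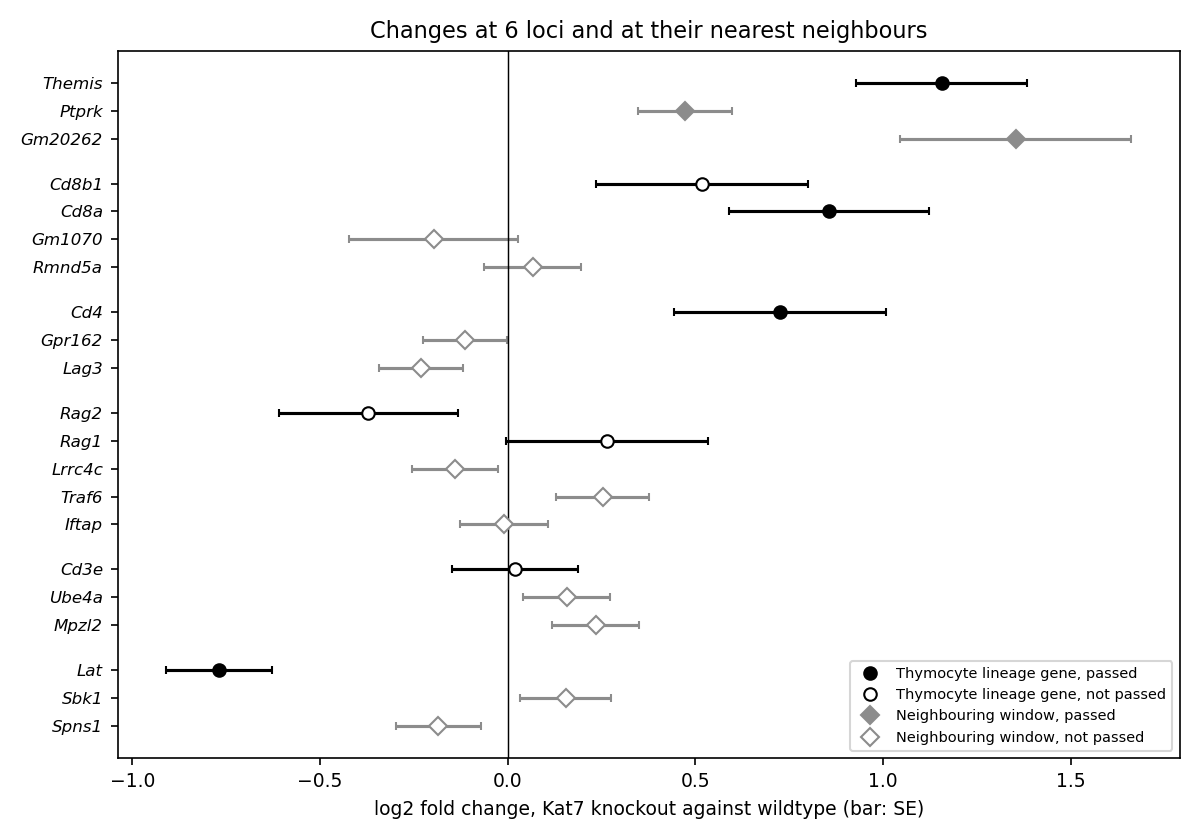
Log2 fold change, Kat7 knockout against wildtype (horizontal, bar: SE), for the 8 tested thymocyte lineage genes (black circles) and the nearest named windows at each locus (grey diamonds), filled where the adjusted p was under 0.05. Themis (1.16) stands with higher neighbours, whereas the neighbours of Cd8a (0.86), Cd4 (0.73) and Lat (-0.77) did not pass.

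The 3 knockout libraries did not move alike. Against the wildtype mean, Themis stood at a log2 ratio of 1.22 in knockout library 1, 0.91 in library 2 and 1.26 in library 3, and Cd8a at 0.72, 0.82 and 0.98. Cd4 stood at 0.46, 0.79 and 0.86, and Cd8b1 at 0.09, 0.44 and 0.89. Closed windows moved in libraries 2 and 3 as well. Olfactory receptor windows had median log2 ratios of -0.19, 0.70 and 0.84 in knockout libraries 1 to 3, against -0.33, 0.10 and 0.25 in wildtype libraries 1 to 3. The second quartile of all windows by level, which holds 7 of the 8 tested genes, had medians of -0.52, -0.21 and -0.13 in knockout and -0.07, -0.02 and 0.08 in wildtype libraries. In that quartile 32.5% of windows were lower and 4.58% higher. All windows tested had medians of -0.046, 0.0013 and -0.006 in knockout libraries 1 to 3. In knockout library 1, 5 of the 8 tested genes were above their wildtype mean, among them Themis, Cd8a and Cd4. Rag1 and Cd8b1 were only just above it, at 102.1% and 105.6% of that mean. The count was 5 in knockout library 2 and 6 in library 3. The highest quartile by level had a median of 0.29 in knockout library 1. The part of these shifts in the gains was not tested.

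**Figure D4:**
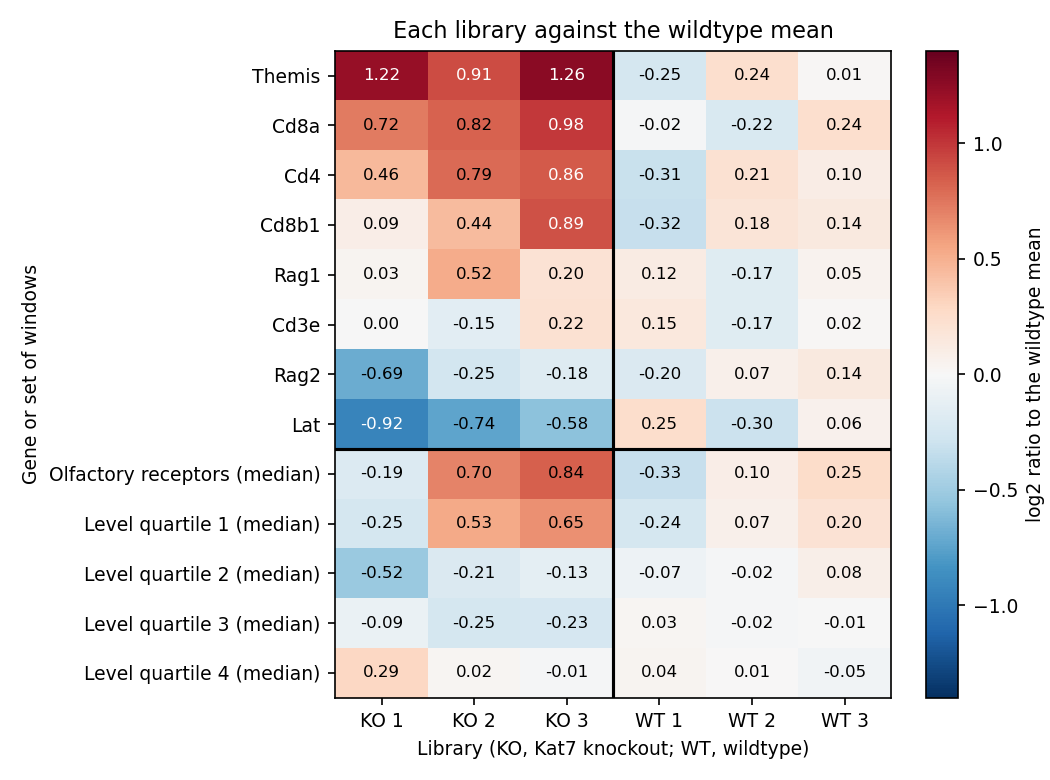
Log2 ratio of each library to the wildtype mean (colour and printed value) for the 8 tested thymocyte lineage genes and, under the line, as medians for olfactory receptor windows and the quartiles of all windows by level. Themis is above 0.9 in every knockout library. The olfactory receptor median is -0.19 in knockout library 1 and 0.70 and 0.84 in the others.

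Summed over the 10 genes, accessibility overlapped between the genotypes. The sum was 37.8, 41.2 and 47.1 CPM in knockout libraries 1 to 3, against 42.0, 37.1 and 42.6 CPM in wildtype libraries 1 to 3. Lat weighed most in it. Without Lat the sum was 29.9, 32.2 and 37.1 CPM in knockout, against 24.3, 25.1 and 27.1 CPM in wildtype libraries, so that the groups did not overlap. Without Themis it averaged 35.8 ± 4.56 CPM in knockout and 37.8 ± 3.40 CPM in wildtype (SD, n = 3 each), so its sign turned with the genes summed. The 10 windows took 0.00334% to 0.00497% of all counts in knockout and 0.00375% to 0.0044% in wildtype libraries.

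Other T lineage promoters moved in both directions. Of 57 tested windows in 3 further lists, 13 fell and 10 rose, against 20.2% lower and 6.36% higher over all windows, with a median log2 fold change of 0.07. Among T cell receptor signalling genes 5 of 21 fell (23.8%) and 2 rose (9.52%), with a median of 0.09. Prkcq, the kinase PKC-theta, fell (3.98 ± 0.910 CPM in knockout and 8.85 ± 0.879 CPM in wildtype, log2 fold change -1.16, edgeR adjusted p = 7.25e-09), and so did Ubash3a, a phosphatase that dampens the receptor (9.63 ± 0.126 and 21.4 ± 0.816 CPM, -1.15). Txk, a Tec family kinase (0.52, adjusted p = 0.0396), and Vav1, an exchange factor (0.35), rose. Txk did not pass in 8 of 15 alternatives (adjusted p up to 0.211), and Vav1 did not without wildtype library 1 (0.0641). The kinase genes Zap70 (0.43, adjusted p = 0.309) and Lck (0.17, adjusted p = 0.384), which start the signal, and Ptcra, the pre-receptor chain (0.10), did not pass.

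Among thymocyte transcription factor genes 3 of 18 fell (16.7%) and 6 rose (33.3%), with a median of 0.13. Over all windows tested 20.2% were lower and 6.36% higher. Gata3, a factor of T lineage commitment in a window sharing bases with another, had 8.38 ± 0.302 CPM in knockout and 19.0 ± 1.84 CPM in wildtype (log2 fold change -1.18, edgeR adjusted p = 1.65e-16). Lef1, a partner of TCF factors, fell as well (-0.92). Tox, a factor of CD4 lineage development, had 137 ± 18.9 CPM in knockout and 88.6 ± 12.0 CPM in wildtype (0.63, adjusted p = 2.55e-06). Satb1, a chromatin organiser with few counts in a shared window, rose by 0.82 (adjusted p = 0.0267) and did not pass in 8 of 14 alternatives (adjusted p up to 0.31). Unlike the 10 genes, this list had open promoters, with medians of 16.5 CPM per kb in knockout and 14.8 CPM per kb in wildtype.

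Among thymocyte stage and surface genes 5 of 18 fell (27.8%) and 2 rose (11.1%), with a median of -0.15. The shares over all windows tested were 20.2% lower and 6.36% higher. Thy1, a surface protein of T cells and also of other cells, had the largest change of the 3 lists, with 8.66 ± 0.930 CPM in knockout and 42.3 ± 2.95 CPM in wildtype (log2 fold change -2.29, SE 0.126, edgeR adjusted p = 5.1e-71). The chemokine receptor gene Ccr4 fell (-1.08), Il2ra, the high-affinity interleukin 2 receptor chain, rose (0.65, adjusted p = 1.17e-07; 0.0687 with library totals only), and S1pr1, the receptor for thymic exit, rose (0.43). Dntt, the polymerase that adds bases during receptor rearrangement (0.53, adjusted p = 0.0893), did not pass. Over the 3 lists, 4 genes were higher without wildtype library 1 and 21 after loess normalisation. In the same settings 689 of 25266 and 4320 of 24817 windows were higher over the whole study.

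**Figure D5:**
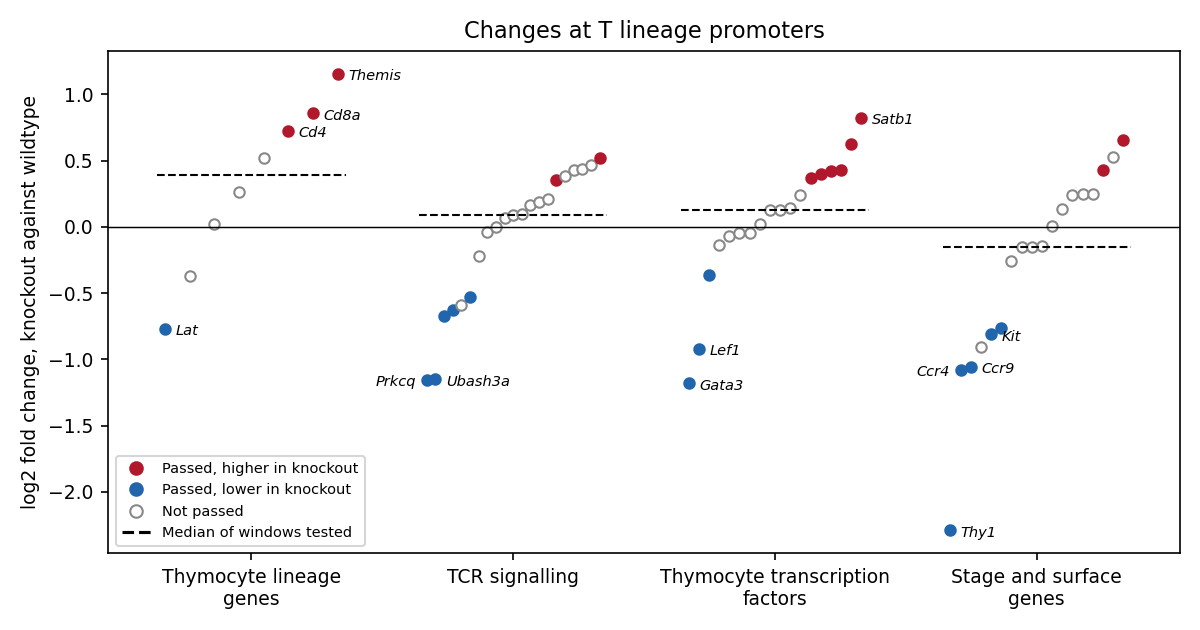
Log2 fold change, knockout against wildtype (vertical), of each tested window in the thymocyte lineage genes and 3 further T lineage lists, filled red where higher and blue where lower at an adjusted p under 0.05, with the median as a dashed line. The medians are 0.39, 0.09, 0.13 and -0.15 from left to right, and Thy1 (-2.29) lies lowest.

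Promoters of leukocytes in general gave no single direction. Of 12 pan-leukocyte genes 3 rose (25%) and 2 fell (16.7%), against 6.36% higher and 20.2% lower over all windows tested. Their summed level was 292.2 to 349.5 CPM in knockout and 310.5 to 324.7 CPM in wildtype libraries. Ptprc, which encodes CD45, had 3.62 CPM in knockout and 1.97 CPM in wildtype (log2 fold change 0.89, edgeR adjusted p = 0.0148), and Cd53, a tetraspanin gene, rose by 0.74. Coro1a, an actin regulator of lymphocytes, fell to 13.8 CPM in knockout, against 27.9 CPM in wildtype (-1.02), and Cd37 fell as well (-0.84). None of the 12 was at 0 in any library, which held for nearly all olfactory receptor windows too. Laptm5 (18.3 CPM per kb in knockout and 18.8 in wildtype) and Dock2 (12.3 and 11.6) had the highest levels of them averaged over all 6 libraries and did not pass. Of 12 tested B cell markers 6 fell (50%) and 2 rose (16.7%), both above the shares over all windows (summed over all 13, 316.0 to 359.0 CPM in knockout and 362.9 to 372.8 CPM in wildtype), with Vpreb1, whose window has no base of its own, at 0 in all 6 libraries. Blnk, a B cell adaptor gene, was the most open per length and rose (log2 fold change 0.36, edgeR adjusted p = 0.0208), followed by Ebf1, a B lineage factor gene, which fell by 1.56 on the log2 scale. Of 13 myeloid and dendritic cell markers 3 fell (23.1%, near the share over all windows) and 2 rose (15.4%), with a summed level of 303.6 to 359.6 CPM in knockout and 285.1 to 291.0 CPM in wildtype, led per length by Zbtb46 (34.1 and 27.3 CPM per kb) and Cd68 (14.7 and 13.6). The part of thymocytes or other leukocytes in the values of the 10 genes was not tested.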

How the data were processed

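Whole-number counts per gene window were deposited by the authors for each library. Per the submitters' processing notes, featureCounts and build mm10 were used. The sources used here name no aligner, duplicate handling, transposase shift or filter; duplicates can raise single windows. The tables of the 6 libraries matched that of the whole series. Symbols came from the library tables by gene identifier. Of 27095 windows, 6243 share bases with another. The 476 without a base of their own had a median count of 0, so levels per kb use unshared bases.

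The test was edgeR 4.0.16 in R 4.3.3 (filterByExpr, TMM factors 0.884 to 1.057, robust quasi-likelihood, no replicate block, Benjamini-Hochberg over 24817 windows, threshold 0.05). SE is the unshrunk log2 fold change over the root of F. Adjusted p are from this test unless another is named. Log2 ratios of single libraries used CPM plus 0.1. The fit was tested on simulated data. Alternatives used DESeq2 1.42.0, limma 3.58.1, other scalings and filters, a replicate block and fewer libraries. Members and lists were chosen with earlier results of these data known; all members, the nearest named window on each side of a locus and the 2 largest called changes per direction in each of the 3 further T lineage lists, and the 2 windows with the highest mean level per kb in each marker list reported, are named, and other genes were chosen after their values were seen. Promoter sequences are RefSeq's entries nearest to the window's gene start.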

Additional observations from a re-analysis of the deposited data

How the results depend on the processing

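Over 15 alternatives, 103 of 120 values of the tested thymocyte lineage genes kept their sign and side of the threshold. Cd3e, which had no call, had log2 fold changes of -0.0011 with library totals only, -0.0169 without a filter, and -0.0989 to 0.0997 where 1 library was left out. Of the neighbours, Iftap turned to 0.0435 with DESeq2 size factors and also with DESeq2, to 0.0181 over windows averaging 50 counts or more, and ranged from -0.0428 to 0.0149 without 1 library. Gm1070 turned to 0.11 after loess normalisation. Rmnd5a turned to -0.0584 after loess normalisation and -0.026 with libraries 2 and 3 alone, and ranged from -0.082 to 0.1355 without 1 library.

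After loess normalisation 5 thymocyte lineage genes were higher and 0 lower by edgeR (1 at an unadjusted p under 0.05; DESeq2 and limma-voom, with their own scaling, called 1 lower), and 21 other T lineage genes were higher. Leaving out 1 library gave 1 to 4 higher thymocyte lineage genes and 4 to 10 other T lineage genes. Over all windows the 1578 higher calls became 2937 with library totals, 4320 after loess normalisation, 3937 over windows averaging 50 counts or more, 2664 with libraries 2 and 3 alone, and 689 to 3177 without 1 library. The higher share of calls was 23.9%, against 35.6% with library totals, 47.0% after loess normalisation and 44.4% over windows averaging 50 counts or more. The summed level, knockout minus wildtype, was 1.42 CPM, 7.63 CPM without Lat, and -1.12 to 3.54 CPM without 1 library; the cause of these changes was not tested.

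With the replicate number as a block, 2824 windows were higher, with 3 higher and 1 lower among the thymocyte lineage genes. Same-numbered libraries deviated together at r = 0.374, 0.028 and 0.389. Pairs with different numbers lay between -0.445 and 0.308, the highest being knockout library 2 with wildtype library 3. The design text gives no pairing, and whether same-numbered libraries share a batch was not tested. With 32 to 346 counts per tested window, counting error limits small changes. P-values rest on the spread between these libraries, which edgeR estimates for most windows almost wholly from all windows. They therefore do not measure the spread of 1 window alone. Il2ra (47.1 ± 12.2 CPM in wildtype) and Ccr4 (56.3 ± 1.47 CPM in wildtype) both had an SE of 0.114, so their own spread hardly entered. Kat7, with 21.15 ± 14.9 CPM in knockout, had an SE of 0.574.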
